A study of Mus musculus with 12 samples.

Results

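Meg3, Rian and Mirg are 3 maternally expressed long non-coding RNAs of a single imprinted domain on mouse chromosome 12. They were taken as the 3 rows with these symbols out of 40853 rows in the gene tables of microglia and of astrocytes. They were chosen by a measured value: Meg3 CPM was lower in every microglia library labelled KO than in every microglia library labelled WT, so the genotype comparison in microglia is given below as a description, without a test. The libraries came from 6 mice of 8 to 9 weeks, 3 labelled WT and 3 labelled KPNA4 KO, and every mouse, controls included, had been given lipopolysaccharide (LPS, from the outer membrane of bacteria, which sets off inflammation) at 1 mg/kg by intraperitoneal injection 20 h before dissection. Kpna4 encodes importin α4, an adaptor that carries proteins into the nucleus. Microglia and astrocytes were sorted by flow cytometry from the dissociated whole brain of each mouse, so that each of the 2 cell types has 3 WT and 3 KO libraries, in 4 groups. Untreated mice were not analysed here, and the labels do not say which part of Kpna4 was removed.

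An imprinted gene is transcribed mainly from the chromosome copy inherited from one parent. In the domain on chromosome 12, the copy from the mother gives the non-coding RNAs and the copy from the father gives the protein-coding genes Dlk1, Rtl1 and Dio3. Meg3 (also called Gtl2) is a long RNA kept largely in the nucleus, which is known for its role in silencing Dlk1 in cis and as a regulator of p53. Rian is the host of a cluster of small nucleolar RNAs (snoRNAs), and Mirg the host of part of a large cluster of microRNAs. In the brain these RNAs are known above all from neurons. In GENCODE M21 the 3 genes have the identifiers ENSMUSG00000021268.17 (Meg3), ENSMUSG00000097451.10 (Rian) and ENSMUSG00000097391.8 (Mirg). That annotation is on another build than the authors' GRCm39, so it served only for names, lengths and gene order.

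The stretches around the annotated starts of the 3 genes are shown because Meg3, Rian and Mirg differed widely in level in the same cells. All 3 symbols were found in the RefSeq promoter table (build GRCm38.p6, plus strand, 250 bases before to 50 after each start). Capitals mark matches, on either strand, to the cAMP response element TGACGTCA, the CCAAT box CCAAT and the TATA box TATAAA; the GC box GGGCGG was searched too. The windows are chr12:109540746-109541045 for Meg3, chr12:109603695-109603994 for Rian and chr12:109734731-109735030 for Mirg.
Meg3: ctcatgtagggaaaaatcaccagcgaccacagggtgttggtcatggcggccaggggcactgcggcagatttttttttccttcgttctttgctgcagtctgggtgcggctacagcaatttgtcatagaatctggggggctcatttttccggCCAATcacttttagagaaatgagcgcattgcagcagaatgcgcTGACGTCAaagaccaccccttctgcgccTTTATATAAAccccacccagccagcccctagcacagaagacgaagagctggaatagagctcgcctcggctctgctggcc
Rian: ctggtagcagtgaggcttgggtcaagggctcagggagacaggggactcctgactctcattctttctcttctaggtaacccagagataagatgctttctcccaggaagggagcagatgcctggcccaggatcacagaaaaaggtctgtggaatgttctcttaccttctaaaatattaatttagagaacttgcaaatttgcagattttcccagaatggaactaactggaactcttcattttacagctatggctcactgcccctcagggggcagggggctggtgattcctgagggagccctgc
Mirg: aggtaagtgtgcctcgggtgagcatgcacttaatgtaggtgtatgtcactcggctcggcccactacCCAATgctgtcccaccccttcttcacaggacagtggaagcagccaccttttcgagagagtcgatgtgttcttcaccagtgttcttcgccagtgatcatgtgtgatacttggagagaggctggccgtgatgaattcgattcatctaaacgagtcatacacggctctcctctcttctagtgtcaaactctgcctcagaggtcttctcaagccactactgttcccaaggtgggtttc
The Meg3 window held a cAMP response element that begins 57 bases before the start, a CCAAT box at 100 bases and overlapping TATA boxes on both strands at 29 and 25 bases. The cAMP response element was present in 1.79% of 32817 promoter windows of the same length, the CCAAT box in 37.4%, the TATA box in 13.6% and the GC box in 35.6%. The Rian window held 0 matches, and the Mirg window held a match to the CCAAT box alone. The Mirg window also contains the sequences of miR-668-5p, miR-668-3p and miR-485-3p, with T for U. Its CCAAT begins on the last base of miR-668-3p, so this match lies next to microRNA sequence. The Meg3 window contained 13 CpG dinucleotides, the Mirg window 10 and the Rian window 0, against a median of 7 over all windows. A second annotated start of Meg3 lay farther downstream, and its window held 0 of these motifs. These are matches of letters and were not tested as binding sites, nor was their relation to the levels tested.

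The small RNAs that these hosts carry did not register in the tables. RefSeq places 60 microRNA genes and 19 snoRNA genes between the start of Meg3 and the end of Mirg, 10 of the microRNA genes within Mirg itself. All of these genes had a row, and all rows held 0 counts in all 12 libraries. The values below therefore describe the long transcripts only. The 60 genes give 111 mature microRNAs with 102 different seeds (bases 2 to 8). A pair from within Mirg that shares a seed is shown, with the seed in capitals, as an example of what the host transcript carries.
miR-453: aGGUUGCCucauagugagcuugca
miR-496a-5p: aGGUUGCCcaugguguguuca

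Library totals, in units of 1 M counts, were 10.3 to 14.5 for microglia and 10.7 to 15.6 for astrocytes. Values are given as CPM (counts scaled to a library total of 1 M); a floor of 3 counts corresponds to 0.193 to 0.291 CPM. Markers of the sorted types matched the labels: the 10 microglia markers summed to 14636 to 18432 CPM in microglia and to 216 to 615 in astrocytes, and the 10 astrocyte markers to 17286 to 22916 CPM in astrocytes and to 359 to 777 in microglia. Kpna4 averaged 84.4 ± 14.8 (WT) and 69.0 ± 9.41 CPM (KO) in microglia, and 49.6 ± 8.81 (WT) and 64.4 ± 18.6 CPM (KO) in astrocytes (SD, n = 3 each), and the libraries of the genotypes overlapped in both cell types. These values cover the whole gene and do not check the genotype labels, so KO below means libraries labelled KO. In sorted bulk cells, fewer cells of a type and less RNA per cell cannot be told apart.

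Meg3 was the most abundant of the 3 RNAs in every library. Its CPM in WT microglia were 19.3, 15.3 and 19.6, and in KO microglia 4.94, 4.43 and 4.75, from 171 to 258 and 51 to 69 counts. In WT astrocytes they were 182, 75.1 and 54.2, and in KO astrocytes 106, 72.4 and 43.9. All astrocyte libraries were above all microglia libraries, while the astrocyte genotypes overlapped. WT replicate 1 stood above the other astrocyte libraries. Among the genes with a count in a library, Meg3 lay above 81.3% to 96.8% of genes in astrocytes, above 55.9% to 68.5% in WT microglia and above 38.7% to 41.8% in KO microglia.

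Rian was lower than Meg3 throughout. Its CPM in WT microglia were 2.49, 0.359 and 1.37, and in KO microglia 0.0969, 0.669 and 0.895, from 1 to 33 counts per library. In WT astrocytes they were 16.4, 5.29 and 12.2, and in KO astrocytes 22.4, 10.1 and 11.8, from 65 to 263 counts. The genotypes overlapped in both cell types, and all astrocyte libraries were above all microglia libraries.

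Mirg was at or near 0. Each of the 6 microglia libraries had 0 counts of it, against a floor of 3 counts. In astrocytes it had 7, 0 and 3 counts in WT and 3, 0 and 4 in KO, so no fold change is given and Mirg was not tested in any comparison.

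**Figure D1:**
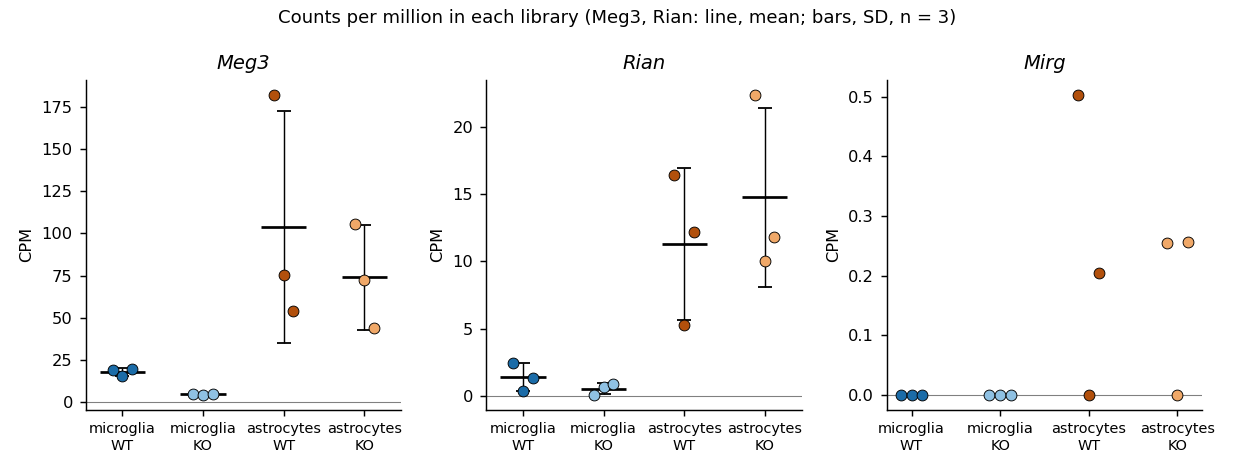
CPM of Meg3, Rian and Mirg (y axes, linear, each with its own range) in the 12 libraries, 1 point per library; for Meg3 and Rian, lines are group means and bars the SD of 3 libraries. For Meg3 the KO microglia lie between 4.43 and 4.94 CPM and the WT microglia between 15.3 and 19.6, while both astrocyte groups are higher and overlap.

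Levels of different genes were compared per length of annotated exons (18.1 kb for Meg3, 18.2 kb for Rian and 7.29 kb for Mirg, GENCODE M21). Per kilobase, Meg3 averaged 5.74 ± 3.79 (WT) and 4.09 ± 1.72 CPM (KO) in astrocytes, against 0.619 ± 0.308 and 0.808 ± 0.365 CPM for Rian (SD, n = 3 each). In microglia Meg3 averaged 1.00 ± 0.132 (WT) and 0.260 ± 0.0142 CPM per kilobase (KO), against 0.0771 ± 0.0584 and 0.0304 ± 0.0226 for Rian (SD, n = 3 each). In astrocytes Mirg averaged 0.0324 (WT) and 0.0234 CPM per kilobase (KO). In single libraries the ratio of Meg3 to Rian per kilobase ran from 3.74 to 14.3 in astrocytes, with both ends in different genotypes, and from 5.35 to 51.4 in microglia, where the highest ratio rests on 1 count of Rian. Meg3 was above Rian in all libraries, but the ratio between them was not constant. In astrocytes Rian was above Mirg in all libraries, while in microglia Rian was too near the floor of 3 counts to be ordered against Mirg. The isoforms the cells used were not resolved, so these levels depend on the annotated exon length.

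The comparison of the cell types asks where in the sorted glia these RNAs were found. It was averaged over genotype, which keeps it balanced against the contrast that chose Meg3. Both testable RNAs were lower in microglia than in astrocytes, and they were lower in 6 of 6 mice. For Meg3 the means were 11.4 ± 7.48 CPM in microglia and 88.9 ± 50.3 CPM in astrocytes (SD, n = 6 each), and the log2 fold change was -3.53 (edgeR: SE 0.32, adjusted p 1.74e-07). For Rian they were 0.980 ± 0.860 and 13.0 ± 5.82 CPM (SD, n = 6 each), and the log2 fold change was -4.06 (edgeR: SE 0.57, adjusted p 1.87e-05). Many genes differ between these cell types: edgeR called 36.4% of 17294 genes as lower in microglia, so 2 of 2 testable members among them is to be read against that share. The CPM of both groups did not overlap for Meg3 and Rian, as for 21.7% of all genes in this direction.

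Within single mice, Meg3 in astrocytes was 9.43, 4.89 and 2.76 times its level in microglia in the WT mice and 21.4, 16.3 and 9.23 times in the KO mice. The genotypes overlapped in this ratio, and its microglia part belongs to the contrast that chose Meg3. For Rian the ratio was 6.59, 14.7 and 8.89 in WT and 15.0 and 13.2 in KO replicates 2 and 3, while KO replicate 1 had 1 count in microglia and gives no usable ratio.

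**Figure D2:**
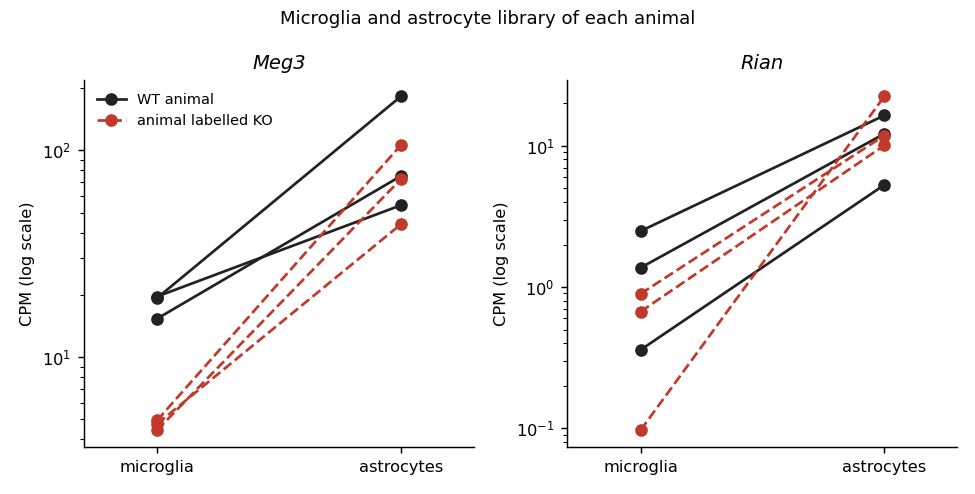
CPM of Meg3 and Rian (y axes, log scale) in the microglia and the astrocyte library of each mouse, joined by a line, solid for WT and dashed for KO. Every line rises towards astrocytes; for Meg3 the astrocyte value was 2.76 to 21.4 times the microglia value.

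Neuron markers followed the same order of cell types. The 15 markers summed to 457 to 638 CPM in astrocytes and to 29.6 to 64.4 CPM in microglia. Of the 15, 14 were called lower in microglia, beside 36.4% of all 17294 tested genes. Among them were Map2 (log2 fold change -5.08, SE 0.25), Nefm (-5.58, SE 0.45) and Snap25 (-3.59, SE 0.42). Map2 encodes a dendritic microtubule protein, Nefm a neurofilament subunit and Snap25 a protein of synaptic vesicle fusion. None of the 15 was at 0 in all libraries of a group. The summed mural, fibroblast and oligodendrocyte precursor markers were also higher in all astrocyte than in all microglia libraries, although single markers such as Gpr17 and Lum overlapped. With the neuron marker score as a covariate, a score that itself separates the cell types, the log2 fold changes were 1.18 (SE 1.63, edgeR adjusted p 0.833) for Meg3 and 1.36 (SE 3.88, edgeR adjusted p 0.944) for Rian, and the count of called genes dropped from 11166 to 285. The part of these markers in the difference was not tested beyond this fit.

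The genotype comparison in astrocytes used libraries that played no part in the choice of Meg3, although they come from the same mice. It asks whether the members differ between KO and WT astrocytes after LPS, and neither testable member did beyond the spread of the libraries. Meg3 averaged 104 ± 68.6 (WT) and 74.0 ± 31.0 CPM (KO; SD, n = 3 each), and its log2 fold change was -0.38 (edgeR: SE 0.43, adjusted p 0.999). Rian averaged 11.3 ± 5.61 (WT) and 14.7 ± 6.65 CPM (KO; SD, n = 3 each), and its log2 fold change was 0.48 (edgeR: SE 0.45, adjusted p 0.999). edgeR called 0% of 15755 genes in this comparison, while DESeq2 called 4 genes, and 2.37% (373 genes) had an unadjusted edgeR p under 0.05, with 0 of the 2 members among them. Of all genes, 5.74% were lower and 2.39% higher in KO without overlap, again with neither member. The direction for Meg3 rested on WT replicate 1: without that library its log2 fold change was 0.31 (SE 0.37).

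The genotype comparison in microglia is a description, since it chose Meg3. Meg3 averaged 18.1 ± 2.39 (WT) and 4.71 ± 0.257 CPM (KO; SD, n = 3 each), so that WT was 3.84 times KO, and the log2 fold change was -1.96 (SE 0.34). Rian averaged 1.41 ± 1.07 and 0.554 ± 0.412 CPM (SD, n = 3 each) with a log2 fold change of -1.35 (SE 1.20), from 55 counts in all WT and 22 in all KO libraries. The groups did not overlap for Meg3, which the choice fixed, and overlapped for Rian. Of 14191 genes, 6.57% were lower in KO without overlap and 8.17% had a log2 fold change of -1 or below; edgeR called 0%, with an unadjusted p under 0.05 for 7.42% (1053 genes), and DESeq2 called 41 genes. The log2 fold change of Meg3 stayed between -2.06 and -1.91 with each library left out.

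Markers of other cells were lower on average in KO microglia too. Of the 15 neuron markers 13 had a lower mean in KO, with sums of 36.4 to 64.4 CPM in WT and 29.6 to 40.4 in KO, and the groups overlapped in 14 of the 15. All 8 mural markers had a lower mean, with sums of 12.5 to 28.8 and 5.14 to 14.7 CPM, as had all 10 astrocyte markers (359 to 777 and 381 to 403 CPM), all 8 endothelial markers (30.2 to 74.2 and 25.5 to 35.1 CPM), all 5 fibroblast markers (10.9 to 18.2 and 6.61 to 10.3 CPM) and all 5 choroid plexus markers (1444 to 4105 and 567 to 1629 CPM). The summed fibroblast markers did not overlap between the genotypes, and the other 5 sums did. Among the mural and fibroblast markers, Higd1b and Lum were at 0 in all KO microglia, and Cd3e of the leukocyte list was at 0 in both groups. With the neuron, the mural, the endothelial or the astrocyte marker score as a covariate, each alone, the log2 fold change of Meg3 was -1.37 (SE 1.06), -1.79 (SE 0.54), -1.84 (SE 0.37) and -1.79 (SE 0.47), and that of Rian 0.41 (SE 5.44), 1.13 (SE 2.05), -0.30 (SE 1.53) and 0.44 (SE 1.93). The SE of Meg3 was 0.34 without a score, and the neuron markers were themselves lower on average in KO. Genotype and neuron score are therefore hard to separate in 6 libraries, and these values are a description only. The value of Rian changed sign with 3 of the 4 scores, with an SE larger than the value in each of these. The part of these cells in the difference was not tested further.

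The same values can be set against the astrocytes of the same genotype. Meg3 in microglia was at 17.4% of its astrocyte mean in WT and at 6.36% in KO, and Rian at 12.5% and 3.76%. The astrocyte markers in microglia were at 2.78% and 1.84% of their sum in astrocytes, the neuron markers at 9.81% and 6.74%, and the mural markers at 5.56% and 2.47%. The oligodendrocyte precursor markers were at 10.1% (WT) and 8.52% (KO), the fibroblast markers at 12.1% and 7.71%, the oligodendrocyte markers at 38.9% and 38.3%, the endothelial markers at 66.7% and 55.5%, and the choroid plexus markers at 201% and 108%. The share of Meg3 was above those of 5 of these 8 lists in WT and above those of the astrocyte and mural markers alone in KO. In WT astrocytes the neuron sum was mostly Map2, with a mean of 335 CPM beside a mean sum of 544 CPM. In WT microglia Map2 gave less of it, at 7.90 to 21.2 CPM beside sums of 36.4 to 64.4 CPM. The neuron share thus leans on Map2. Whether Meg3 in WT lies above the other neuron markers was not tested. Some shares rest on single mice: without WT replicate 1 Meg3 in WT was at 27.1%, and Rian in KO was at 7.16% without KO replicate 1, which had 1 count, and at 2.36% without KO replicate 3.

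**Figure D3:**
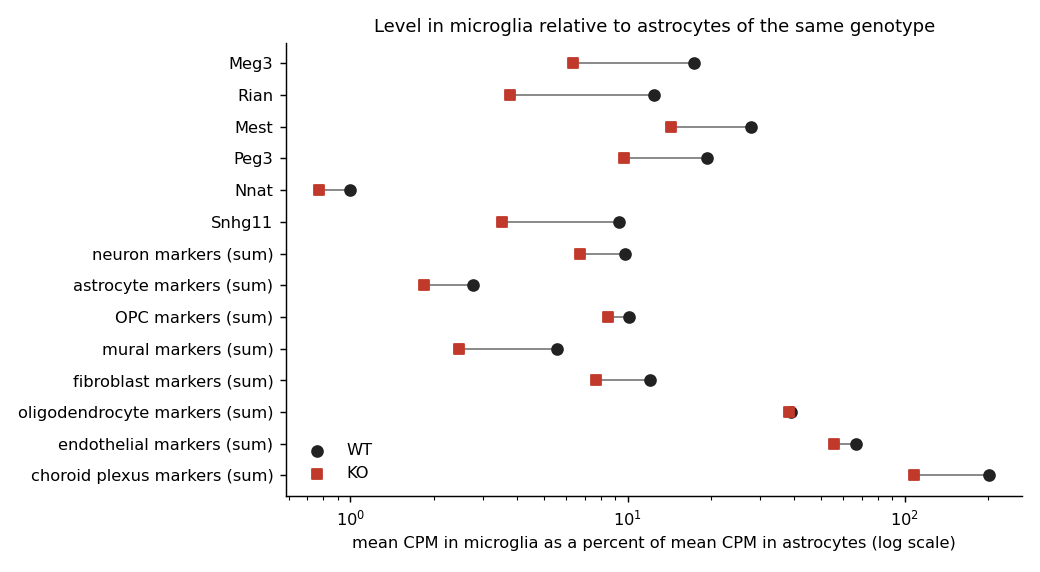
Mean CPM in microglia as a percent of the mean CPM in astrocytes of the same genotype (x axis, log scale) for members, other genes and summed marker lists; circles are WT, squares KO, each a ratio of means of 3 libraries. Meg3 lies at 17.4% in WT and 6.36% in KO, the neuron markers at 9.81% and 6.74%.

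The other genes of the domain and its flanks were taken from a list of 10 rows. Dlk1, the paternally expressed ligand-like gene next to Meg3, was called lower in microglia (log2 fold change -2.25, SE 0.91, edgeR adjusted p 0.0427), at 2.09 ± 3.35 CPM in microglia and 6.49 ± 3.38 CPM in astrocytes (SD, n = 6 each), but the libraries overlapped. Rtl1, a gene derived from a retrotransposon, was at 0 to 4.83 CPM in microglia and 0 to 7.38 CPM in astrocytes (log2 fold change 0.53, SE 1.20, edgeR adjusted p 0.717). Rtl1 lies opposite a maternal antisense transcript, and reads from the 2 strands cannot be told apart in these counts. Dio3, the deiodinase that inactivates thyroid hormone, was at 0 in all microglia and at 0.407 CPM or less in astrocytes, and Dio3os was at 0 in all 12 libraries.

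Among the flanking genes of this list, Begain was called lower in microglia (-3.21, SE 0.93, edgeR adjusted p 0.00734). Yy1, a transcription factor, was called higher (0.75, SE 0.16, edgeR adjusted p 7.63e-04). So were Ppp2r5c, a phosphatase subunit (0.69, SE 0.19, edgeR adjusted p 0.00641), and Dync1h1, the dynein heavy chain (1.10, SE 0.15, edgeR adjusted p 1.63e-05). Wdr25 and Wars, a tRNA synthetase, did not pass (log2 fold changes 0.10, SE 0.53, and 0.13, SE 0.18). Of the 8 tested genes of this list, which leaves out the members, 2 were called lower in microglia and 3 higher, beside 36.4% and 28.2% of all genes. The 3 higher genes are flanking genes that are not imprinted. The median log2 fold change of the list was 0.33, against -0.19 over all genes tested. In astrocytes 0 of 7 tested genes of the list were called between genotypes, with log2 fold changes between -0.53 (Begain) and 0.80 (Wdr25). In microglia, described only, the 7 genes had a median of -0.30, with Dlk1 at -2.24 (SE 1.45), Dync1h1 at -0.61 (SE 0.20) and Begain at 0.02 (SE 1.62).

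Imprinted genes from other chromosomes were examined next to the members, as 2 lists of maternally and paternally expressed genes with 45 rows in all, the paternal genes of the domain included. Between the cell types, 24 of 36 tested genes were called lower in microglia and 3 higher (Tspan32, Ppp1r9a and Peg10), with a median log2 fold change of -2.48. edgeR called 36.4% of all genes as lower and 28.2% as higher. Of the genes called lower, Dcn, Zim1, H19, Slc22a18 and Mkrn3 passed the low-count filter in astrocytes but not in microglia. Tspan32 (7.01, SE 1.12) passed it in microglia but not in astrocytes. The direction of these calls follows in part from the filter. Dcn is also 1 of the 5 fibroblast markers. The paternal gene Nnat, neuronatin of the endoplasmic reticulum, was at 3.55 ± 2.60 CPM in microglia and 398 ± 88.9 CPM in astrocytes (SD, n = 6 each; log2 fold change -7.08, SE 0.47, edgeR adjusted p 7.98e-09). Peg3, a zinc finger gene, was at 33.0 ± 18.3 and 225 ± 21.6 CPM (SD, n = 6 each; -3.16, SE 0.21, edgeR adjusted p 6.24e-09), and Mest, a hydrolase-like enzyme, at 51.8 ± 27.5 and 237 ± 85.3 CPM (SD, n = 6 each; -2.62, SE 0.28, edgeR adjusted p 1.33e-06). Among maternal genes, Igf2r, the receptor that clears IGF2, was lower by a log2 fold change of -2.75 (edgeR: SE 0.29, adjusted p 9.18e-07) and Gnas, a G protein subunit, by one of -0.95 (edgeR: SE 0.16, adjusted p 1.34e-04). Cd81 (0.02, SE 0.19) and Kcnq1ot1, a paternal long RNA (0.18, SE 0.17), did not pass. Reads of Igf2r and of the antisense RNA Airn, which overlaps it, are not separated by strand here.

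Between genotypes in astrocytes, 0 of the 34 tested imprinted genes were called by edgeR and 0 had an unadjusted p under 0.05. Their median log2 fold change was 0.06 against -0.00684 over all genes, and 15 of 34 were below 0, as were 50.6% of all genes. Nnat was at -0.10 (SE 0.27), Peg3 at 0.04 (SE 0.19), Mest at -0.18 (SE 0.35) and Igf2r at 0.03 (SE 0.25).

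In microglia, as a description in the contrast that chose Meg3, 22 of 29 imprinted genes were below 0, against 50.1% of all genes, with a median log2 fold change of -0.46 against -0.00129. Snrpn and Snurf, counted apart, had identical values there (-0.46, SE 0.80), equal to that median, so they are not independent of each other. Mest stood at 74.6, 53.4 and 92.0 CPM (WT) against 42.8, 19.6 and 28.7 CPM (KO). Peg3 stood at 26.5, 41.0 and 66.5 CPM (WT) against 17.6, 20.4 and 25.8 CPM (KO). Igf2r stood at 14.4, 18.3 and 34.5 CPM (WT) against 2.91, 3.93 and 8.13 CPM (KO). For these 3 genes all KO libraries lay below all WT libraries, as for Plagl1 and Igf2, while Tspan32, Zrsr1, Peg13 and Mcts2 lay above without overlap; Plagl1, Igf2, Peg13, Mcts2 and, above, Peg10 are named after their values were seen. That is 5 of 29 lower and 4 of 29 higher without overlap, beside 6.57% and 6.53% of all genes. Many of these genes are far higher in the astrocyte libraries. The marker sums of other cells given above were also lower on average in KO microglia, with overlap between the genotypes for all but the fibroblast sum. Whether these sums and the imprinted genes change together was not tested.

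**Figure D4:**
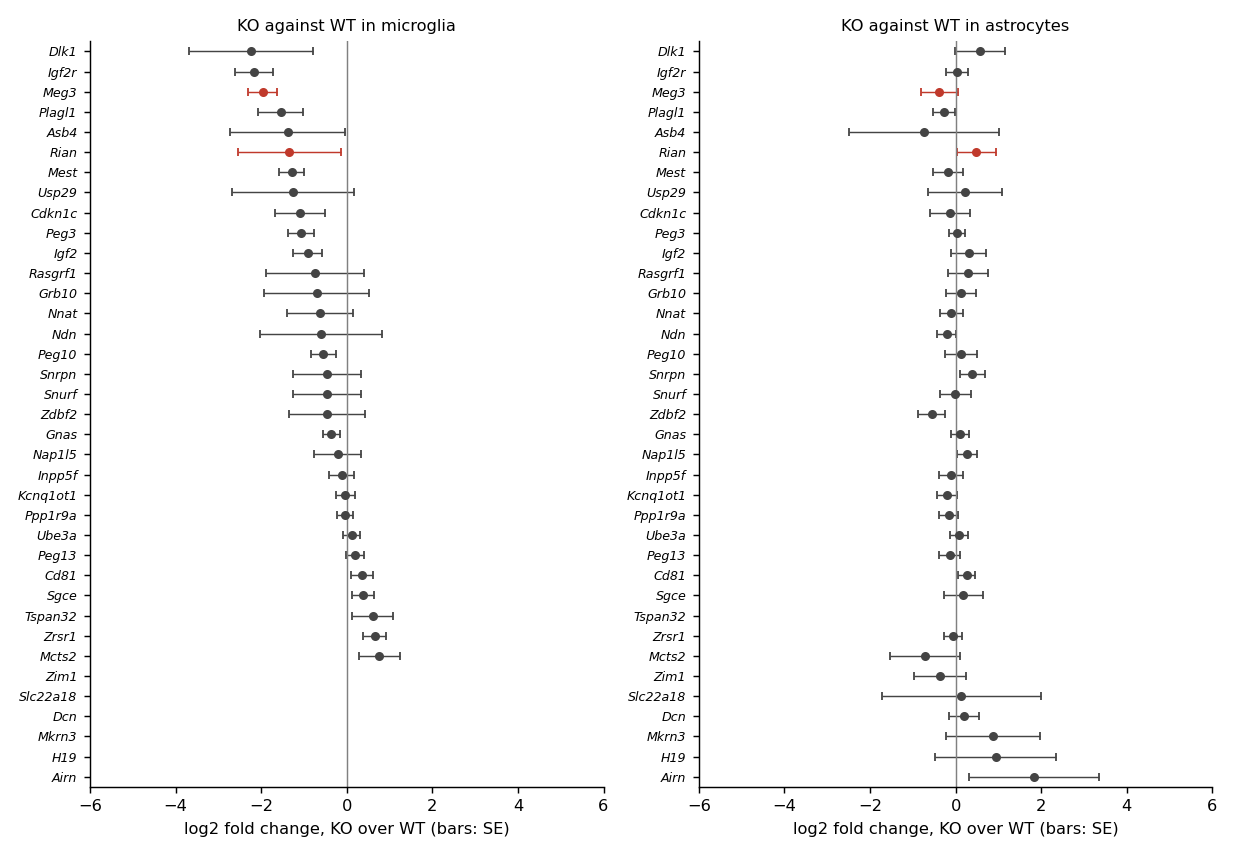
Log2 fold change of KO over WT (x axes; bars, SE) for members (red) and other imprinted genes (grey), in microglia (left, in order of the microglia value) and in astrocytes (right, same order); genes without a point were not tested there. In microglia 22 of the 29 grey genes lie left of 0, in astrocytes 15 of 34.

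The genes whose pattern over the 12 libraries was most like that of Meg3, by the Pearson correlation of log2 CPM over 17293 other genes, were Vwa8 (0.984), Nefm (0.983), Mest (0.983), Dlg4 (0.980) and Pacsin3 (0.975). The 12 libraries come from 6 mice and 2 cell types, and the cell type difference weighs on all of these values. A correlation does not measure the size of a change. Vwa8 averaged 71.9 ± 8.72 (WT) and 49.1 ± 4.32 CPM (KO) in microglia (SD, n = 3 each). In astrocytes Vwa8 averaged 104 ± 9.39 (WT) and 94.8 ± 22.8 CPM (KO; SD, n = 3 each), a smaller difference between cell types than that of Meg3. Nefm encodes a neurofilament, Dlg4 the postsynaptic scaffold PSD-95 and Pacsin3 an endocytic adaptor. The microglia libraries whose genotype split chose Meg3 are among the 12, so genes picked this way tend to share that split: all 5 were lower in KO than in WT microglia without overlap, as were 6.57% of all genes, and nothing is read from it. Nefm averaged 2.61 ± 1.60 and 0.333 ± 0.152 CPM, and Pacsin3 2.14 ± 0.362 and 0.318 ± 0.0846 CPM in WT and KO microglia (SD, n = 3 each). Rian correlated with Meg3 at 0.913, which placed it at rank 817. The genes most like Rian were Otx1 (0.986), Abr (0.985), Kif3c (0.983), Rab34 (0.982) and Nfasc (0.981), and Meg3 came at rank 1465. The closest patterns among the ranked genes thus belonged to genes outside the domain for both RNAs. Mirg was not ranked, and Rian had 1 to 33 counts per microglia library, so nothing about the domain is read from this order.

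**Figure D5:**
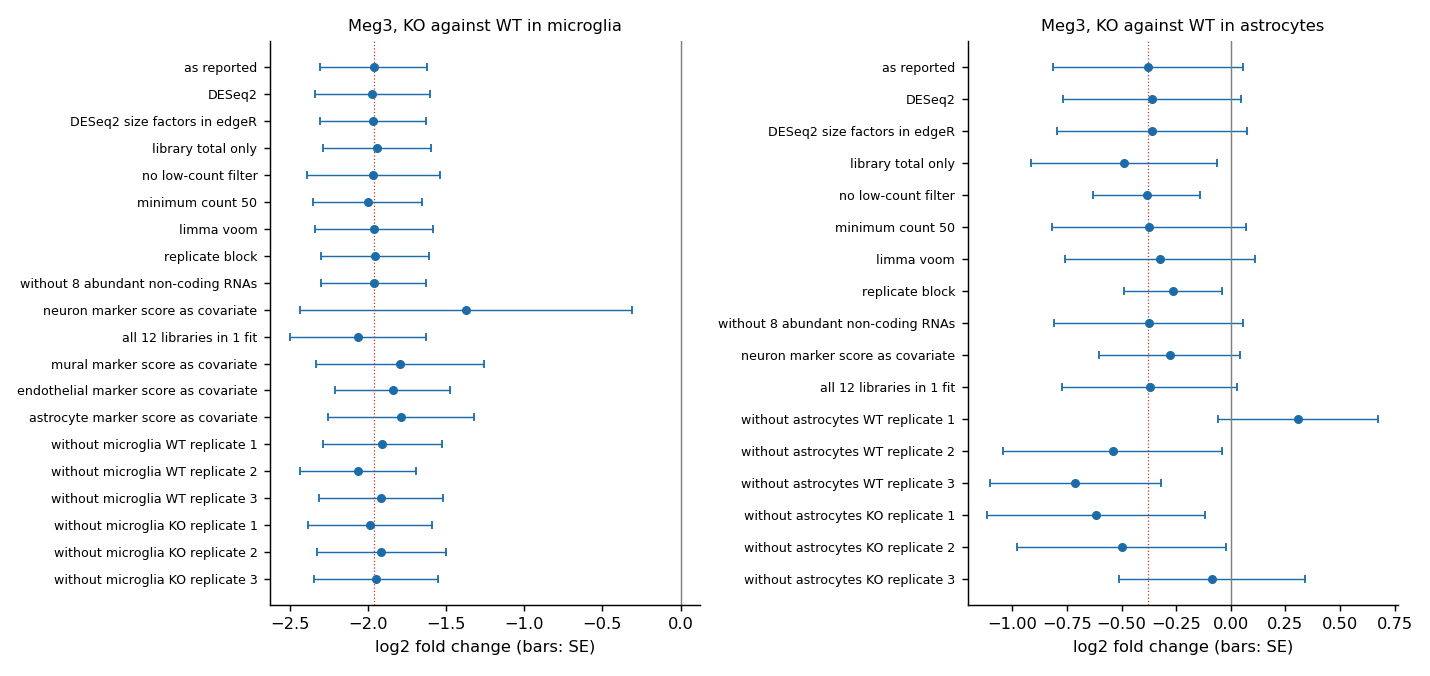
Log2 fold change of Meg3, KO over WT (x axes; bars, SE), in microglia (left) and astrocytes (right) as reported and under each other way of processing; the dotted line marks the reported value. In microglia all values lie between -2.06 and -1.37; in astrocytes the value without WT replicate 1, at 0.31, lies on the other side of 0.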

How the data were processed

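Per the labels' protocols, RNA was purified on columns from the sorted cells, amplified as full-length cDNA (SMART-Seq HT) and turned into libraries with Nextera reagents. For each cell type the authors deposited a table of estimated counts, not normalized, with gene symbols as rows; the column names, per the file headers, carry the ending of RSEM gene output. STAR 2.7.10b, RSEM 1.3.3 and the build GRCm39 are listed in the submitters' processing notes, without their roles; the annotation is not stated there. Of the values above 0, 3.44% to 5.27% were not whole at a tolerance of 0.001. Amplified copies without molecular identifiers are not independent molecules, so floors cover counting error only.

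Estimated counts were rounded. CPM were taken per library total. The test was edgeR 4.0.16's quasi-likelihood test (R 4.3.3) with TMM factors, filterByExpr (minimum count 10) and Benjamini-Hochberg adjustment over all tested genes, called under 0.05. Genotypes were compared within the 6 libraries of a cell type, and cell types over all 12 libraries as 4 group means. The SE is the log2 fold change divided by the square root of F. The fits were tested on simulated data. Log2 CPM for scores and correlations used a prior count of 2; a score is the mean log2 CPM of a list. The microglia and astrocyte library of a mouse share an animal number in the labels; across genes, deviations of these pairs from their group means correlated at 0.002 to 0.093.

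The members and lists were chosen with earlier results of these data known. The rule for naming took Kpna4, the members, their neighbours, per list up to 5 genes by the smallest p under 0.05 in each tested comparison and the 3 most abundant, and the 5 genes most like Meg3 or Rian. Some genes that it picked, among them Nap1l5, Zdbf2, Nefl, Celf4 and Norad, are not shown. The named genes are thus only a part of those picked. Genes given for a marker list, the low-count filter or an overlap were named outside this rule. The alternatives were DESeq2 1.42.0, DESeq2 size factors, library totals alone, no filter, a minimum count of 50, limma 3.58.1 voom with quality weights, each library left out, blocks, 1 fit of 12 libraries, 8 abundant non-coding RNAs removed, and marker scores as covariates; the mural, endothelial and astrocyte scores, and the shares of Meg3 and Rian with each mouse left out, were added after seeing the data.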

Additional observations from a re-analysis of the deposited data

How the results depend on the processing

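The 0 genes called between genotypes in microglia became 41 with DESeq2, 41 in a single fit of all 12 libraries, 30 with the replicate number as a block and 121 when no genes were filtered, and ran from 0 to 2 with each library left out. In astrocytes the 0 became 4 with DESeq2 and 17 without a filter, and ran from 0 to 1. The 11166 genes called between cell types became 285 with the neuron marker score as a covariate, where the log2 fold change was 1.18 for Meg3 and 1.36 for Rian. Under the other 20 alternatives both stayed below 0 and called, from -3.58 to -2.97 for Meg3 and from -4.45 to -3.65 for Rian. The animal as a block gave -3.39 and -4.22 and changed no call.

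In microglia the neuron, mural and astrocyte scores moved Meg3 to -1.37, -1.79 and -1.79 and Rian to 0.41, 1.13 and 0.44; the other 16 alternatives for Meg3 and 15 for Rian moved each by less than the spread between replicates. With a library left out, Meg3 in astrocytes ran from -0.71 to 0.31. Rian in astrocytes stayed above 0 in 16 of 16 alternatives, and was called in 0. With a minimum count of 50 Rian in microglia was not tested. No label says that equal replicate numbers link a WT with a KO mouse. Libraries with equal numbers had correlated deviations of 0.13, 0.05 and 0.20 (microglia) and -0.02, 0.05 and 0.23 (astrocytes). Microglia and astrocytes of the same mouse, a pairing that the labels give, correlated at only 0.002 to 0.093. Such values therefore cannot decide whether the numbers pair the samples. With the replicate number as a block Meg3 was at -1.96 in microglia and -0.26 in astrocytes, and Rian at -1.17 and 0.55. The cause of these changes was not tested. Between genotypes in microglia Rian rests on 1 to 33 counts per library and Mirg on 0, and a difference in Mirg was not detectable at this depth.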

Other observations

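Other long non-coding RNAs went both ways between the cell types. Of 21 tested genes in a list of 22, edgeR called 10 lower and 6 higher in microglia, beside 36.4% and 28.2% of all genes. Their median log2 fold change was -0.34 against -0.19 over all genes. Rmst and Pantr1, called lower, passed the low-count filter in astrocytes but not in microglia. Snhg1 and Epb41l4aos, called higher, passed it in microglia but not in astrocytes. Snhg11 and Miat, both known from neurons, were lower in microglia, at 1.49 ± 1.10 and 3.22 ± 2.10 CPM against 23.2 ± 8.92 and 24.6 ± 9.58 CPM in astrocytes (SD, n = 6 each; log2 fold changes -4.43, SE 0.61, and -3.28, SE 0.46; edgeR adjusted p 1.45e-05 and 1.86e-05). Sox2ot, which overlaps the neural transcription factor gene Sox2, was lower by a log2 fold change of -3.70 (edgeR: SE 0.31, adjusted p 8.13e-08). Neat1, the scaffold RNA of paraspeckles, was higher in microglia (1.58, SE 0.24, edgeR adjusted p 4.43e-05), and Malat1, of nuclear speckles, lower (-0.82, SE 0.22, edgeR adjusted p 0.00448).

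Between genotypes in astrocytes 0 of 18 tested genes of this list were called by edgeR and 0 had an unadjusted p under 0.05. In microglia the list had a median log2 fold change of 0.03, with 8 of 18 genes below 0. Of these 18 genes, 1 was lower in KO without overlap and 0 were higher, beside 6.57% and 6.53% of all genes. The 1 lower gene was Snhg14, the host transcript of the Snrpn domain. Its CPM were 1.36, 0.987 and 2.81 in WT and 0, 0 and 0.551 in KO. Snhg14 was named by the cell type comparison (log2 fold change -4.75, edgeR: SE 0.65, adjusted p 1.37e-05). Where it overlaps Ube3a on the opposite strand, reads of the 2 genes cannot be told apart.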
